A study of Mus musculus with 20 samples.

Results

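The globins and their companions in red blood cell formation were followed through 20 mouse tumors. The 6 genes were Hbb-bs and Hbb-bt (beta globins), Hba-a1 and Hba-a2 (alpha globins), Alas2 (heme synthesis) and Slc4a1 (band 3), out of 35226 genes in the count table. They were chosen by their read counts, which disappear from tumors of mice given cisplatin, so the comparisons with cisplatin are given below as a description, with no test.

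Each tumor was a subcutaneous graft of LLC1, an established mouse Lewis lung carcinoma cell line, in a male C57Bl6/J mouse that was 8 to 10 weeks old according to the methods. Mice were assigned at random to 4 groups once the tumor measured 100 mm3. The groups, of 5 tumors each, received vehicle, KW6002 (istradefylline, an antagonist of an adenosine receptor), cisplatin (a platinum drug that crosslinks DNA), or cisplatin with KW6002, called cotreatment. All tumors came from 1 cell line grown outside its organ of origin. The sources used here point to different treatment schedules for these mice, so no dose or day of harvest is given. The sequenced RNA was that of the whole tumor, host blood, vessels and immune cells included, and fewer cells of a type and less RNA per cell cannot be told apart in it.

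Hemoglobin is a tetramer of a pair of alpha and a pair of beta globin chains, each holding a heme. Erythroid precursors in marrow and spleen make it in large amounts, and young red cells that have just lost their nucleus, the reticulocytes, still carry globin and Alas2 mRNA when they enter the blood. Older red cells hold almost no mRNA. Alas2 is the erythroid form of the first enzyme of heme synthesis, and Slc4a1 exchanges chloride for bicarbonate across the red cell membrane and anchors the membrane skeleton.

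The members lie on 3 chromosomes of the GRCm38 assembly. Hbb-bs (ENSMUSG00000052305, chr7:103826534-103828096, minus strand) and Hbb-bt (ENSMUSG00000073940, chr7:103812524-103813996, minus strand) neighbor each other in the beta globin cluster. Hba-a1 (ENSMUSG00000069919, chr11:32283511-32284465, plus strand) and Hba-a2 (ENSMUSG00000069917, chr11:32296489-32297298, plus strand) form the adult part of the alpha globin cluster. Alas2 (ENSMUSG00000025270) spans chrX:150547375-150570638 on the plus strand, and Slc4a1 (ENSMUSG00000006574) spans chr11:102348824-102366203 on the minus strand. All 6 encode proteins. The globin transcripts have 3 exons each, that of Alas2 has 11 and that of Slc4a1 has 20.

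Both globin pairs are near copies, which bears on every globin count here because reads that aligned to more than 1 place were discarded. The coding sequences of Hbb-bs and Hbb-bt have 441 bases and differ at 1 of them (C417T, counted from the first base of the start codon, Hbb-bs first), an identity of 99.8%. The coding sequences of Hba-a1 and Hba-a2 have 426 bases and also differ at 1 (C381T, Hba-a1 first), again an identity of 99.8%. The read-length stretches of 50 coding bases around these positions are shown because only reads across them can assign a coding read to 1 gene of a pair, and capitals mark the differing base. They cover coding bases 392 to 441 of the beta globins and 356 to 405 of the alpha globins.
Hbb-bs: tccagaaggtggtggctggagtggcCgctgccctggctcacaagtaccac
Hbb-bt: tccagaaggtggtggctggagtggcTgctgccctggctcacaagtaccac
Hba-a1: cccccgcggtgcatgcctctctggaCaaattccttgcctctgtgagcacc
Hba-a2: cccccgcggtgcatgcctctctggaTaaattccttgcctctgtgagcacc

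Cutting the annotated transcripts into all windows of 50 bases showed how much of each transcript is found in no transcript of another gene. The windows were compared with transcripts and not with the genome, so they are upper bounds of what such reads can mark. Hbb-bs had 198 windows of its own among 579 (34.2%) and Hbb-bt had 273 among 654 (41.7%). Hba-a1 had 211 among 650 (32.5%), and Hba-a2 had 66 among 505 (13.1%). The annotated transcript of Hba-a1 includes the 130 bases before its RefSeq start, and 127 of them are also found directly before the Hba-a2 gene. Reads within that stretch align to more than 1 place, so the 211 overstate what reads can assign to Hba-a1. The windows that were not a gene's own were shared with the other copy, 381 in the beta pair and 439 in the alpha pair. A globin count in this table is therefore a count of a small part of the transcript, and counts of different globins do not compare directly. In Alas2, 1713 of 1988 windows were its own (86.2%), and 263 were shared with Apex2, a DNA repair gene that overlaps it. All 4496 windows of Slc4a1 were its own.

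The 130 bases before the RefSeq start were searched for motifs in the 5 members that matched an entry of the RefSeq promoter table for GRCm38.p6, on the strand of the gene. The RefSeq starts lie downstream of the gene starts given above, which are those of GENCODE, by 168 bases in Hbb-bs, 73 in Hbb-bt, 161 in Hba-a1, 3 in Hba-a2 and 42 in Alas2. Parts of the windows therefore lie in exons of the GENCODE annotation, and the window of Hba-a1 does so whole. The stretches outside exons are shown for Hbb-bs, Hbb-bt and Alas2, which were among the genes that appeared and disappeared together. That of Hba-a2, which also did so, is not shown. Capitals mark 4 motifs on either strand, namely CACCC (the box bound by erythroid KLF1 and its relatives), GATAA (the core bound by GATA factors), the box CCAAT and the box TATAA. The stretches shown are chr7:103827929-103828011 for Hbb-bs, chr7:103813997-103814053 for Hbb-bt and chrX:150547287-150547374 for Alas2.
Hbb-bs: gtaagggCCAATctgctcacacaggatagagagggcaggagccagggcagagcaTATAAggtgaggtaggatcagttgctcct
Hbb-bt: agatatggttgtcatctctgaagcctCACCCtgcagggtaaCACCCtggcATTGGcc
Alas2: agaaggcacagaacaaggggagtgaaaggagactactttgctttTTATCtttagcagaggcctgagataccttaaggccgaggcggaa

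All 4 globin windows of the full length held the motif CACCC as well as the box CCAAT and the box TATAA. In Hbb-bs the CACCC match began 90 bases before the RefSeq start, the CCAAT match 76 and the TATAA match 29. Hbb-bt held CACCC at 2 places and CCAAT at 3, of which 2 lie side by side on opposite strands. Alas2 held 3 matches of CACCC and 1 of GATAA, each on the reverse strand. Among 32454 windows of the same length in the promoter table, 33.8% held CACCC, 11.3% held GATAA, 22.3% held CCAAT and 12.7% held TATAA. The Hba-a1 and Hba-a2 windows were identical over the 127 bases they share after a shift of 3 bases, whereas 96 of 129 aligned bases (74.4%) matched between Hbb-bs and Hbb-bt.

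Total counts ranged from 28.4 to 41.0 M reads per tumor. Library codes in the labels form an earlier range, with 8 tumors, and a later range, with 12, and each group has tumors in both. A couple of tumors stood apart for genes of other cells. In KW6002 replicate 1 the summed level of the B cell list was 130 CPM (counts per M reads of the scaled library), against 6.22 to 18.6 in all other tumors. Cotreatment replicate 4 held 146 reads of the muscle gene Mb, against 0 to 27 in the 18 tumors that did not stand apart. They held 636 and 2 reads of Hbb-bs, in groups that ran from 575 to 1233 and from 1 to 2. The LLC1 label was set beside keratin, vimentin and epithelial genes. Krt8 had 2952 to 7359 reads per tumor, Krt18 6955 to 12315 and Vim 79076 to 158180. Krt19 had 44 to 312 and Cdh1 38 to 110, while Epcam had no more than 5 in any tumor. In RNA of the whole tumor these reads cannot be assigned to the tumor cells alone. Where nothing else is said, P values measure the spread between tumors labelled as replicates.

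Hbb-bs was the most abundant member. Vehicle tumors 1 to 5 held 1615, 530, 979, 2947 and 1078 reads, and KW6002 tumors held 636, 575, 1233, 622 and 869. Cisplatin tumors held 0, 2, 1, 1 and 0 reads and cotreated tumors 2, 1, 1, 2 and 1. The lowest tumor without cisplatin thus held 530 reads and the highest with cisplatin held 2. The groups did not overlap, as was the case for 5.11% of all tested genes when the 10 tumors given cisplatin were set against the 10 others. Summed over the 5 tumors, 7149 reads in vehicle stood against 4 after cisplatin, a ratio of 1953 after scaling to library size (exact Poisson 95% interval of the low count, 763 to 7170). For KW6002 against cotreatment the sums were 3935 and 7, a ratio of 640 (311 to 1591). Without cisplatin replicate 2, which held 2 of the 4 reads, the first ratio was 2999. These intervals cover counting error only, and reads copied by PCR are not independent molecules.

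Hbb-bt, the second adult beta globin, gave 315, 145, 164, 766 and 168 reads in the vehicle tumors and 124, 123, 179, 135 and 171 in the KW6002 tumors. Each of the 10 tumors given cisplatin held 0. Against a floor of 3 counts over the group, its scaled level was at least 568-fold higher in vehicle than in cisplatin tumors and at least 278-fold higher in KW6002 than in cotreated tumors. Without vehicle replicate 4 the first bound was 377-fold.

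The alpha globins had fewer assignable reads. Hba-a1 gave 76, 9, 47, 121 and 34 reads in vehicle tumors and 26, 22, 53, 32 and 31 in KW6002 tumors. With cisplatin, replicates 4 and 5 held 1 read each and the other 8 tumors held 0. Hba-a2 gave 53, 10, 38, 92 and 31 reads in vehicle tumors and 10, 18, 62, 26 and 29 in KW6002 tumors. All 5 cisplatin tumors held 0 reads of Hba-a2, and in the cotreated group replicate 2 held 3 and the others 0. The scaled ratio of vehicle to cisplatin was 157 for Hba-a1 (95% interval 43.4 to 1295, from 287 and 2 reads), and at least 81.6 for Hba-a2 (224 and 0 reads). Without cisplatin replicate 4 or 5, which leaves 1 read, the ratio for Hba-a1 was 253 or 249. Among the vehicle tumors, replicate 2 was the lowest and replicate 4 the highest for all 4 globins.

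Alas2 followed the globins. It gave 104, 44, 62, 326 and 63 reads in vehicle tumors and 57, 56, 69, 39 and 108 in KW6002 tumors, 0 in every cisplatin tumor, and 2 reads in cotreatment replicate 5 with 0 in the other cotreated tumors. The level was at least 218-fold higher in vehicle than in cisplatin tumors, and 187-fold higher in KW6002 than in cotreated tumors (95% interval 51.8 to 1546). Without vehicle replicate 4 the first value was at least 130-fold, and without cotreatment replicate 5, the only cotreated tumor with a read, the second was at least 101.9-fold. Apex2, which shares windows with Alas2, had 604 to 827 reads in tumors without cisplatin and 579 to 902 in tumors with it and was thus counted in all 20 tumors.

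Slc4a1 did not follow them. Vehicle tumors held 3, 2, 1, 10 and 2 reads and KW6002 tumors 7, 6, 5, 1 and 1, while cisplatin tumors held 4, 4, 2, 6 and 3 and cotreated tumors 2, 4, 2, 2 and 2. Every tumor held at least 1 read, and the 4 groups overlapped. The group sums were 18 reads in vehicle and 19 in cisplatin tumors, a scaled ratio of 1.04 (exact 95% interval from both counts, 0.512 to 2.08). Without vehicle replicate 4 the ratio was 0.601, so its direction rested on that tumor. Between KW6002 and cotreatment, with 20 and 12 reads, the ratio was 1.90 (0.883 to 4.26). The loss described for the globins and Alas2 therefore does not describe Slc4a1, although changes up to about the bounds of these intervals were not detectable at this depth. Slc4a1 was too low for the filter on counts, so 5 of the 6 members entered the fit across genes.

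**Figure D1:**
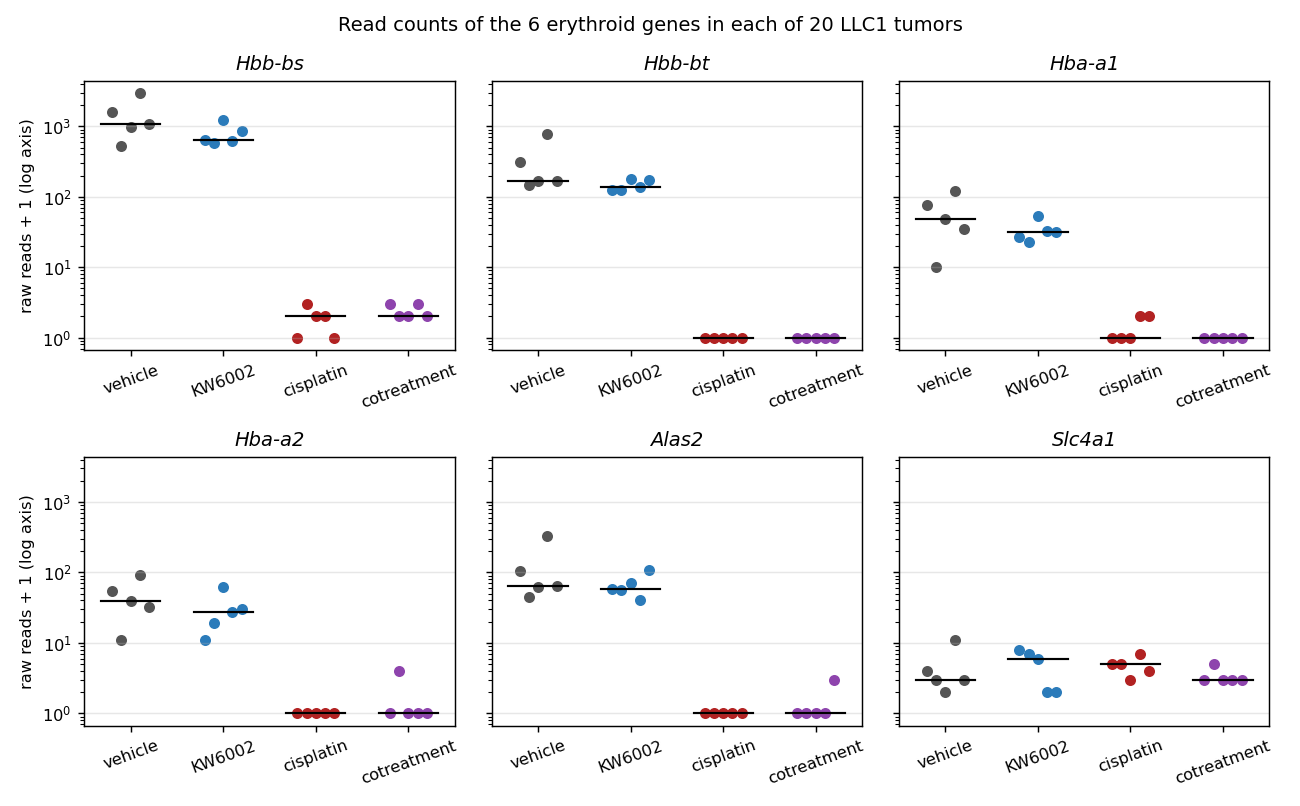
Raw reads + 1 of each member in each tumor, on a log axis, with replicates 1 to 5 from left to right in each of the 4 groups and a bar at the group median. Hbb-bs lies between 530 and 2947 reads in tumors without cisplatin and at 0 to 2 with it, whereas Slc4a1 lies between 1 and 10 reads in all 4 groups.

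The pattern was the same within both ranges of library codes. Hbb-bs had 575 to 1615 reads in the 3 tumors with earlier codes and no cisplatin and 530 to 2947 in the 7 with later codes, against 0 to 2 in the 5 earlier and 0 to 2 in the 5 later tumors given cisplatin. Alas2 had 56 to 104 and 39 to 326 reads without cisplatin, and 0 and 0 to 2 with it.

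How unusual this pattern is in the table can be counted. Of all 35226 genes, 14360 had at least 10 reads in each of the 10 tumors without cisplatin. Only 4 of them had at most 3 reads in each of the 10 tumors with cisplatin, namely Hbb-bs, Hbb-bt, Alas2 and Hba-a2, or 0.0114% of the table. Hba-a1 missed the count by 1 read, with 9 in vehicle replicate 2. No gene showed the opposite pattern, at most 3 reads without and at least 10 with cisplatin. With limits of 5 and 5, the list gained Hba-a1, Klri1 (a receptor of natural killer cells) and the uncharacterized B230303A05Rik, each of these 3 with a lowest count of 5 to 9 without cisplatin.

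The next genes in order were far behind. Among genes with at least 10 reads in every tumor without cisplatin, the ratio of summed reads scaled to library size, with 3 reads added to the cisplatin side, was 870 for Hbb-bs, 838 for Hbb-bt, 204 for Alas2 and 67.6 for Hba-a2. It was 9.75 for Cd209f, a C-type lectin, and 5.95 for Mcpt4, a mast cell protease, which were the fifth and sixth genes in order. In the fit across 16665 tested genes, 4.57% were called lower after cisplatin and 10.4% after cotreatment, both against vehicle. A gene was called when its edgeR quasi-likelihood P value, Benjamini-Hochberg adjusted over all tested genes, was under 0.05 and its log2 fold change was at least 0.32 in size.

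**Figure D2:**
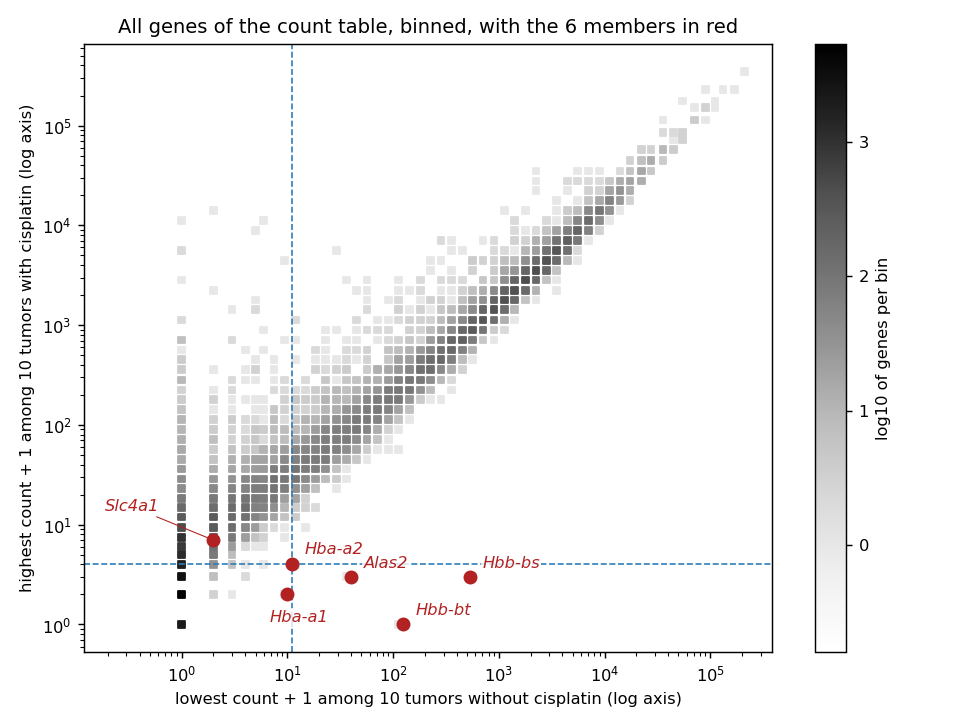
For bins of all 35226 genes, the lowest count + 1 among the 10 tumors without cisplatin against the highest count + 1 among the 10 tumors with it, both on log axes, with darker bins holding more genes. Dashed lines mark 10 and 3 reads, and Hbb-bs, Hbb-bt, Alas2 and Hba-a2 are alone in the lower right corner, while Slc4a1 lies among the bulk of the low genes.

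Among the tumors without cisplatin, the members were compared with each other. Levels varied widely. The highest of the 10 tumors exceeded the lowest 4.37-fold for Hbb-bs, 5.45-fold for Hbb-bt, 10.0-fold for Hba-a1, 7.80-fold for Hba-a2 and 7.11-fold for Alas2, on counts + 0.5 scaled to library size. Vehicle replicate 4 was the highest tumor for each of the 6 members.

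The ratio within the beta pair was narrower than the levels. Hbb-bs exceeded Hbb-bt in reads 5.12-, 3.65-, 5.95-, 3.85- and 6.40-fold in vehicle tumors 1 to 5 and 5.11-, 4.66-, 6.87-, 4.59- and 5.07-fold in KW6002 tumors. The SD of the log2 ratio over the 10 tumors was 0.29, against 0.72 for the level of Hbb-bs and 0.75 for that of Hbb-bt. Counting error alone would give 0.12. Vehicle replicates 2 and 4, the lowest and the highest tumor of their group for Hbb-bs, had the lowest ratios.

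Within the alpha pair, Hba-a1 to Hba-a2 gave ratios from 0.905 to 1.43 in vehicle tumors and from 0.856 to 2.52 in KW6002 tumors. The SD of the log2 ratio was 0.43 and counting error alone would give 0.40. Pooled over both groups, the alpha ratios therefore spread about as much as counting predicts at this depth. The SD was 0.26 in vehicle and 0.59 in KW6002 tumors. Both alpha globins together had 6.13% of the reads of both beta globins. Their ratio ran from 0.0289 in vehicle replicate 2 to 0.0818 in KW6002 replicate 3, with an SD of 0.43 on the log2 scale against 0.20 from counting.

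These ratios are of assignable reads, and the windows behind them differ. Per 100 windows of its own, the mean level in vehicle tumors was 22.5 CPM for Hbb-bs, 3.51 for Hbb-bt, 2.11 for Hba-a2 and 0.845 for Hba-a1. On that scale Hba-a2 stood above Hba-a1 in each of the 10 tumors without cisplatin, by 1.23- to 3.74-fold, although Hba-a1 had more reads in sum. This order depends on the annotation, because the windows of Hba-a1 include a stretch that is also found in the genome before Hba-a2. The 2 alpha globins can therefore not be ranked on that scale. Alas2 had 0.212 CPM per 100 windows and Slc4a1 had 0.00243.

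Alas2 reads amounted to 8.37% of Hbb-bs reads over the 10 tumors. The ratio ran from 0.0589 to 0.111 in vehicle and from 0.0563 to 0.125 in KW6002 tumors, with an SD of 0.41 on the log2 scale against 0.18 from counting. Slc4a1 reads were 0.343% of Hbb-bs reads, and their ratio spread widely (log2 SD 1.04, of which counting gives 0.87).

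None of the 5 ratios differed between KW6002 and vehicle in a two-sided exact permutation test over all arrangements of the 10 tumors. The difference in log2 ratio, KW6002 minus vehicle, was 0.10 for Hbb-bs to Hbb-bt (exact P = 0.619), 0.12 for Hba-a1 to Hba-a2 (exact P = 0.802), 0.24 for alpha to beta (exact P = 0.444), 0.16 for Alas2 to Hbb-bs (exact P = 0.556) and 0.85 for Slc4a1 to Hbb-bs (exact P = 0.214). Adjusted over the 5 ratios, the lowest exact P was 0.774.

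**Figure D3:**
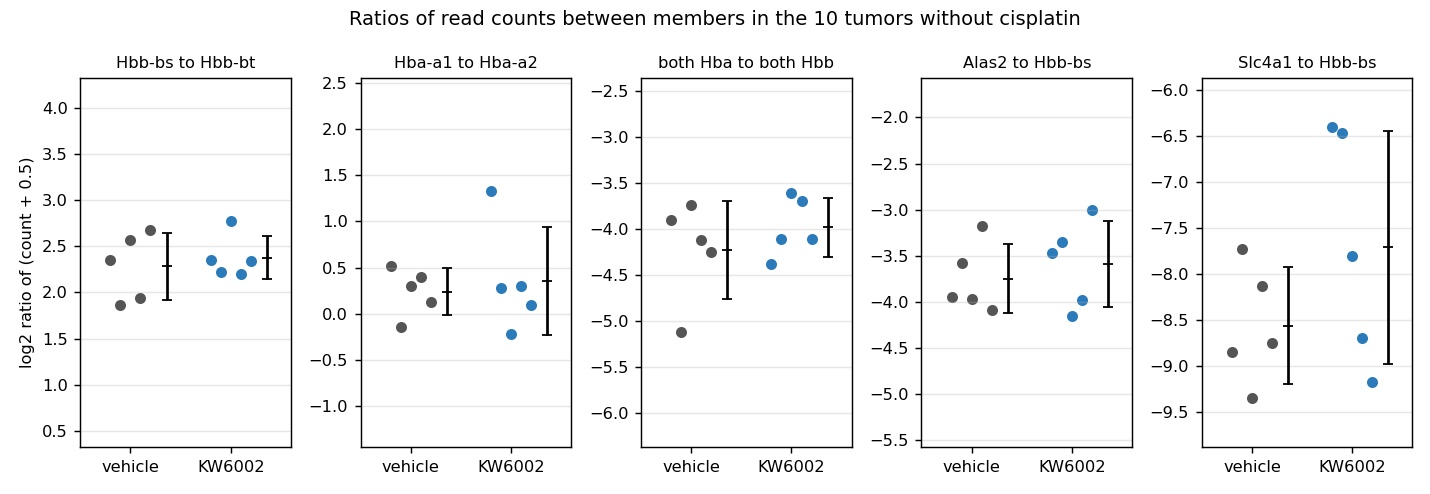
Log2 ratios of counts + 0.5 between members in the 5 vehicle and 5 KW6002 tumors, replicates 1 to 5 from left to right, with the mean and SD at the right of each group. All panels span 4 log2 units, so the narrow spread of Hbb-bs to Hbb-bt (SD 0.29 over the 10 tumors) can be set against that of Slc4a1 to Hbb-bs (SD 1.04).

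Across the same 10 tumors, the other globins and Alas2 varied together with Hbb-bs. Correlations of log2 CPM were computed for 8 relations, with 100000 permutations each. Pearson's r with Hbb-bs was 0.92 for Hbb-bt (permutation P = 0.0001, adjusted 0.0008), 0.90 for Hba-a1 (permutation P = 0.00022, adjusted 0.00088), 0.89 for Hba-a2 (permutation P = 0.00055, adjusted 0.00147) and 0.87 for Alas2 (permutation P = 0.00137, adjusted 0.00274). Spearman's rho was 0.87 for Hbb-bt (permutation P = 0.00219), 0.95 for Hba-a1 (permutation P = 8e-05), 0.90 for Hba-a2 (P = 0.00074) and 0.77 for Alas2 (P = 0.0124).

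Leaving out vehicle replicates 1 and 4, the tumors farthest from the median of Hbb-bs, left r at 0.80 for Hbb-bt, 0.78 for Hba-a1, 0.86 for Hba-a2 and 0.61 for Alas2 over 8 tumors. Within the 7 tumors of later library codes r was 0.89, 0.88, 0.88 and 0.89. The 3 tumors of earlier codes were too few for a value.

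Slc4a1 showed no such relation over the 10 tumors, with r = 0.28 (permutation P = 0.436, adjusted 0.581) and rho = 0.14 (permutation P = 0.707), and r turned to -0.25 without vehicle replicates 1 and 4. Within the later codes r was 0.79. At 1 to 10 reads per tumor, these values rest on few counts. The mean log2 CPM of endothelial markers did not track Hbb-bs (r = -0.0049, permutation P = 0.989), nor did that of neutrophil markers (r = -0.09, permutation P = 0.799). Without vehicle replicates 1 and 4, r was 0.30 for endothelial and -0.46 for neutrophil markers. For platelet markers, r was 0.52 (permutation P = 0.125, adjusted 0.20) and rho 0.67 (permutation P = 0.0387, adjusted 0.0619), which did not pass the adjustment. That r was 0.70 without vehicle replicates 1 and 4, 0.77 without vehicle replicate 4 alone (permutation P = 0.0193) and 0.27 within the later codes.

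**Figure D4:**
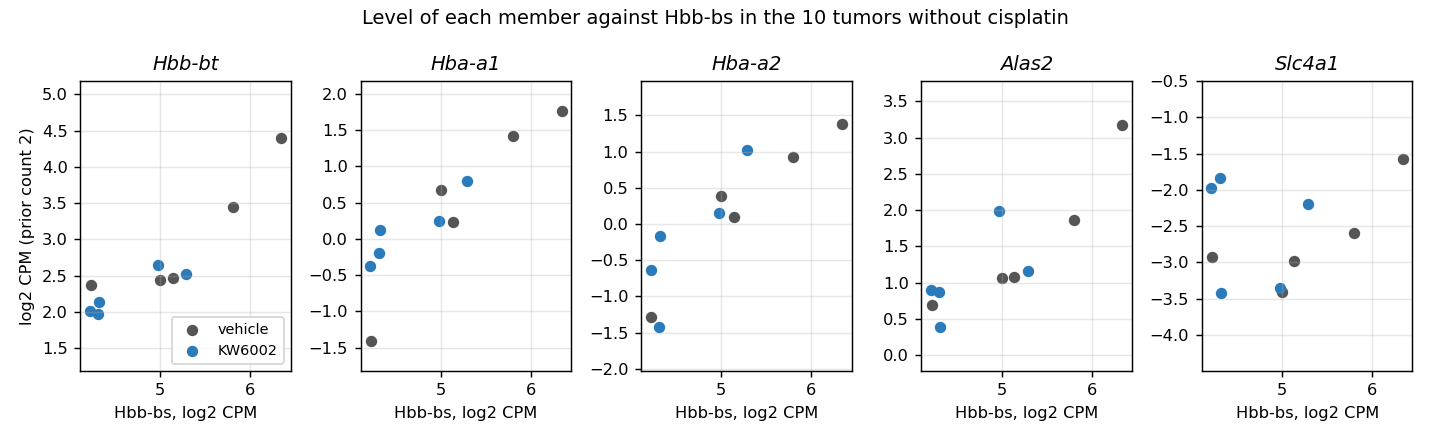
Log2 CPM of each of the other 5 members against log2 CPM of Hbb-bs, 1 point per tumor, for the 5 vehicle and 5 KW6002 tumors, with 4 log2 units on each vertical axis. Points rise together for Hbb-bt (r = 0.92), Hba-a1 (0.90), Hba-a2 (0.89) and Alas2 (0.87), and scatter for Slc4a1 (0.28).

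Likeness to Hbb-bs was ranked for all 16664 other tested genes over these 10 tumors, as a description. The members took ranks 3 (Hbb-bt), 8 (Hba-a1), 11 (Hba-a2) and 21 (Alas2). The 8 other genes with the highest r were Nde1 (0.95), Hmces (0.93), Trim27 (0.92), Ciao2a (0.92), Pak1ip1 (0.91), Polh (0.90), Mad2l1bp (0.90) and Upf3a (0.90). These 8 varied little, between 1.16-fold and 1.21-fold from the lowest to the highest tumor, where Hbb-bt varied 5.40-fold on the same log2 CPM scale. Likeness over all 20 tumors is not given, because the tumors fall into separate clusters for these genes.

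KW6002 with vehicle is the only comparison of treatments that the choice of members did not use. Neither edgeR nor DESeq2 called any of the 16665 tested genes (0%), and 339 genes (2.03%) had an unadjusted P under 0.05 in edgeR and 299 in DESeq2. All 5 tested members were lower on average with KW6002. The level of Hbb-bs was 25.7 ± 9.09 CPM with KW6002 and 44.5 ± 24.4 CPM with vehicle (SD, n = 5), a log2 fold change of -0.79 ± 0.29 (SE, edgeR adjusted P = 1.00). Hbb-bt had a log2 fold change of -1.0 ± 0.40. Hba-a1 had -0.74 ± 0.44, Hba-a2 -0.57 ± 0.51 and Alas2 -0.75 ± 0.46, each with an edgeR adjusted P of 1.00. None of these 5 differences passed the test, although 2 of the 5 genes were among the 339 counted above, and 2 of the 5 among the 299. The vehicle and KW6002 tumors overlapped for each gene, as they did for all but 0.342% of tested genes.

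The differences depended on vehicle replicate 4. Without it, the log2 fold change was -0.46 for Hbb-bs, -0.48 for Hbb-bt, -0.39 for Hba-a1, -0.23 for Hba-a2 and -0.08 for Alas2. Without KW6002 replicate 1, the tumor with B cell genes, Hbb-bs stood at -0.71. In the tumors of later codes alone Hbb-bs stood at -0.46 and Hba-a2 at -0.0005. Slc4a1 could only be fitted without the filter on low counts, with 0.18 ± 0.56.

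The 7 other globin genes that were analysed were nearly silent or did not share the pattern. Embryonic Hbb-y and Hba-x had at most 1 and 4 reads in any tumor, Hbq1a at most 2 and Hbq1b at most 10. Of the 3 that were tested, Ngb (neuroglobin) had 16 to 43 reads and Cygb (cytoglobin) 83 to 357, with no call in any comparison. Mb, the oxygen store of muscle, was called higher after cotreatment than with vehicle (log2 fold change 3.30 ± 1.23, edgeR adjusted P = 0.0447). That call was lost in 9 of the 20 fits without 1 tumor, and without cotreatment replicate 4 the log2 fold change was 1.16 and the edgeR adjusted P 0.438. It was also lost with the replicate block, without the filter on low counts and with later library codes alone.

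A list of other erythroid genes (membrane proteins, transcription factors and enzymes of red cell precursors) held 23 genes, of which 20 were in the table and 6 were tested. Most had almost no reads even where globin reads were present. Kel, Epb42, Trim58, Car1, Tspo2 and Cldn13 had no more than 3 reads in any of the 20 tumors. The erythroid transcription factors Klf1 and Gata1 had 0 to 10 and 0 to 6 reads over all tumors, with the vehicle median at 2 and 1 and the cisplatin median at 5 and 3. Of these low genes, none went from counts in every tumor without cisplatin to 0 in every tumor with it.

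The genes of the list that were near 0 throughout could not be tested, so the calls below are for the 6 with more reads. In cisplatin tumors, where Hbb-bs had 0 to 2 reads, Ank1 had 254 to 352 and Epor 39 to 88. After cisplatin 0 of the 6 were called, where 10.6% of all genes were, and 1 was called after cotreatment against vehicle, where 23.5% of all genes were. This was Ermap, an erythroid adhesion protein, at 0.561 ± 0.14 CPM against 0.32 ± 0.15 CPM (log2 fold change 0.81 ± 0.31, edgeR adjusted P = 0.0472), and the call was lost in 10 of the 20 fits without 1 tumor. The list's median log2 fold change was -0.14 after cisplatin and -0.25 after cotreatment, beside 0.0004 and -0.02 for all tested genes. Ank1 is a membrane skeleton anchor, with 183 to 419 reads per tumor, and Epor the erythropoietin receptor, with 38 to 88. Against vehicle neither passed (Epor after cotreatment -0.44 ± 0.19, edgeR adjusted P = 0.0708). Against KW6002, where 23.3% of all genes were called and 10.7% were called lower, cotreated tumors had lower Epor (-0.67 ± 0.18, edgeR adjusted P = 0.00796, lost with later library codes alone) and lower Ank1 (-0.37 ± 0.14, edgeR adjusted P = 0.0442, lost in 12 of the 20 fits without 1 tumor). Sptb (beta spectrin), Nfe2 and Tspan33 were not called against vehicle. After cisplatin Sptb had 1.49 ± 0.89, Nfe2 -0.22 ± 0.33 and Tspan33 -0.36 ± 0.37. After cotreatment Sptb had 2.20 ± 0.88 (edgeR adjusted P = 0.0591), Nfe2 -0.19 ± 0.33 and Tspan33 -0.80 ± 0.38. Between cotreatment and cisplatin, where 4% of all genes were called, none of the tested genes of this list, the heme synthesis list or the list of heme breakdown and iron genes was. Sptb had 242 reads in cotreatment replicate 4, against 6 to 61 in the 18 tumors that did not stand apart.

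Heme synthesis and mitochondrial heme transport were measured with 13 other genes, all tested. After cisplatin 1 was called lower, and after cotreatment 1 was called higher and 1 lower, both against vehicle, or 7.69% and 15.4% of the list, beside 10.6% and 23.5% of all genes. Uros, the fourth enzyme of the pathway, fell from 18.6 ± 1.7 CPM in vehicle to 14.5 ± 1.2 with cisplatin (log2 fold change -0.36 ± 0.10, edgeR adjusted P = 0.0175) and to 12.2 ± 2.1 with cotreatment (-0.60 ± 0.10, edgeR adjusted P = 0.000124). The first of these calls was lost without vehicle replicate 4. Fech, which inserts the iron, rose from 93.6 ± 5.2 to 127 ± 14 CPM with cotreatment (0.44 ± 0.07, edgeR adjusted P = 0.000134). Alas1, the form of the first enzyme that all tissues use, had 47.5 ± 5.8 CPM with vehicle and 52.1 ± 5.0 with cisplatin (0.13 ± 0.08), in contrast to Alas2 at 0 reads. Slc25a37 (mitoferrin, which brings iron into mitochondria) was not called either.

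Genes that clear heme and hemoglobin and handle iron numbered 14, all tested. After cisplatin 2 rose (14.3%), beside 6.01% of all genes that did. After cotreatment 3 rose, where 13.1% of all genes did, and 1 fell, so that 28.6% of the list was called beside 23.5% of all genes. Slc48a1, which carries heme out of the lysosomes that digest red cells, rose from 134 ± 20 CPM to 189 ± 20 with cisplatin (log2 fold change 0.50 ± 0.09, edgeR adjusted P = 0.00118) and to 182 ± 13 with cotreatment (0.44 ± 0.09, edgeR adjusted P = 0.000942). Fth1, the heavy chain of ferritin, rose with cisplatin (0.40 ± 0.13, edgeR adjusted P = 0.0396). After cotreatment Hpx, the heme scavenger hemopexin, rose by 0.91 ± 0.21 (edgeR adjusted P = 0.00179) and Cd163, the macrophage receptor for hemoglobin bound to haptoglobin, rose by 0.96 ± 0.35 (edgeR adjusted P = 0.0397). Tfrc, the transferrin receptor, fell from 144 ± 33 to 90.6 ± 16 CPM (-0.67 ± 0.18, edgeR adjusted P = 0.00734). Hmox1, which opens the heme ring, was not called (0.45 ± 0.42 after cisplatin, -0.28 ± 0.42 after cotreatment). The Cd163 call was lost in 7 and the Fth1 call in 5 of the 20 fits without 1 tumor, and the cotreatment calls of Hpx, Tfrc and Fech were lost with later library codes alone.

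**Figure D5:**
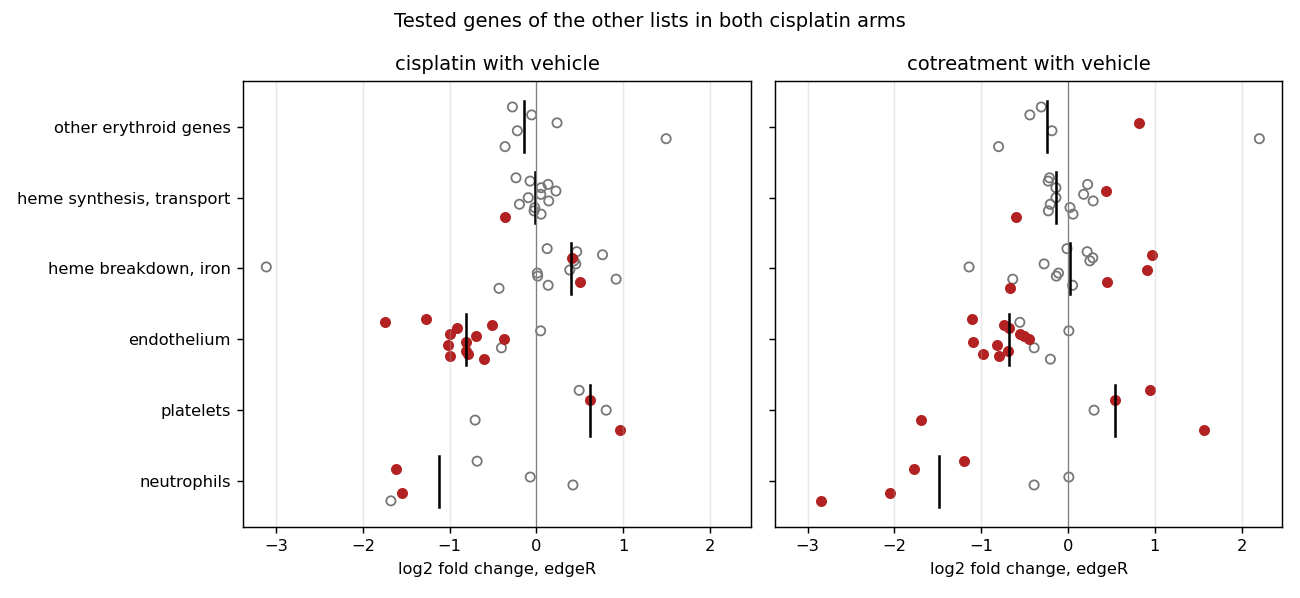
Log2 fold changes against vehicle of the tested genes of 6 lists after cisplatin (left) and cotreatment (right), 1 point per gene, with called genes filled and a bar at the list's median. Endothelial genes lie mostly below 0 in both panels (medians -0.81 and -0.68), while the medians of the other erythroid genes are -0.14 and -0.25.

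Most endothelial genes and some neutrophil genes were called lower in tumors given cisplatin, and the part of these cells in the globin result was not tested. Of 15 endothelial genes, 13 were called lower after cisplatin (86.7%) and 11 after cotreatment (73.3%), beside 4.57% and 10.4% of all genes. The 6 with the smallest adjusted P values after cisplatin were Cdh5 (VE-cadherin, log2 fold change -1.27), Pecam1 (-1.02), Esam (-0.69), Kdr (the VEGF receptor, -0.81), Tie1 (-1.0) and Cldn5 (-1.74). After cotreatment Kdr (-1.09), Cdh5 (-1.11), Pecam1 (-0.82), Tek (-0.97), Flt1 (-0.45) and Tie1 (-0.79) were lower. The summed level of the 15 genes was 345 to 466 CPM in vehicle, 315 to 433 in KW6002, 239 to 284 in cisplatin and 241 to 301 in cotreated tumors. This sum includes Eng, at 86.2 CPM in vehicle tumors, which was not called (log2 fold change 0.05 after cisplatin). None of the 15 was at 0.

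Of 12 platelet genes 5 were tested. After cisplatin Itga2b (integrin alpha IIb, 0.62 ± 0.15, edgeR adjusted P = 0.00876) and Treml1 (0.96 ± 0.26, edgeR adjusted P = 0.0146) rose, or 2 of the 5 where 6.01% of all genes rose, and 0 were called lower. Ppbp, a platelet chemokine, had -0.71 ± 0.42 and was not called. After cotreatment Treml1 (1.57), Gp5 (0.94) and Itga2b (0.54) rose, and Ppbp fell (-1.70 ± 0.44, edgeR adjusted P = 0.00566), beside 13.1% of all genes that rose and 10.4% that fell. With later library codes alone 1 platelet gene was called after cotreatment, in place of 4. The summed level, mostly Pf4, was 41.5 to 74.9 CPM in vehicle, 40.9 to 83.0 in KW6002, 42.2 to 159 in cisplatin and 46.3 to 85.8 in cotreated tumors. The platelet genes Gp9, Gp6 and Tubb1 had no more than 3 reads in any tumor. Gp1ba, a subunit of the platelet receptor for von Willebrand factor, was too low to be tested, with 1 to 9 reads in vehicle, 0 to 5 in KW6002, 0 to 1 in cisplatin and 0 to 3 in cotreated tumors.

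Neutrophil genes numbered 12, with 6 tested. Of these, Cxcr2 (-1.62 ± 0.41, edgeR adjusted P = 0.0112) and S100a8 (-1.55 ± 0.46, edgeR adjusted P = 0.029) fell after cisplatin, or 2 of the 6 where 4.57% of all genes fell. S100a9 (-2.85), S100a8 (-2.05), Cxcr2 (-1.78) and Csf3r (-1.20) fell after cotreatment, where 10.4% of all genes fell. The tested genes Retnlg (0.42 after cisplatin, -0.39 after cotreatment) and Mmp8 (-0.07 and 0.0095) were called in neither. After cisplatin, 1 of the calls was lost without vehicle replicate 1 or 4 and without cisplatin replicate 1, 2, 3 or 4, and with later library codes alone 0 were left after cisplatin and 1 after cotreatment. The summed level was 48.0 to 123 CPM in vehicle, 53.0 to 154 in KW6002, 15.6 to 70.6 in cisplatin and 16.5 to 35.6 in cotreated tumors, and Elane, a gene of neutrophil precursors, had no more than 3 reads in any tumor. Ptprc, the common leukocyte antigen CD45, fell after cisplatin (-0.35 ± 0.10, edgeR adjusted P = 0.0231) and cotreatment (-0.55 ± 0.10, edgeR adjusted P = 0.000272). The B cell list, with 4 of 7 genes tested, had no call against vehicle. Krt8, a keratin of the tumor cells, rose after cisplatin (0.53 ± 0.08, edgeR adjusted P = 0.000288) and after cotreatment (0.57 ± 0.08, edgeR adjusted P = 3.1e-05).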

How the data were processed

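The authors made stranded poly(A) libraries from the tumors, sequenced single-end 50-base reads on a HiSeq 4000, aligned them to mm10 (GRCm38) with STAR 2.5.3a and kept uniquely aligned reads. Reads were counted per gene with HTSeq 0.6.1p1 in union mode (Ensembl releases 90 and 102). The deposited values are raw counts, 28.4 to 41.0 M reads per tumor. The strand option is not given in the sources used here.

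Counts were filtered by group (filterByExpr), scaled by TMM and fitted over all 20 tumors with edgeR 4.0.16 (quasi-likelihood, robust) in R 4.3.3. The study itself used DESeq2, which was run here as an alternative (1.42.0). Calls needed an adjusted P under 0.05 and a log2 fold change of at least 0.32. Log2 CPM used a prior count of 2 and ratios had 0.5 added to both counts. Ratios and correlations were computed with NumPy and SciPy. Intervals are exact at the 95% level and floors are 3 counts. The fit was tested on simulated counts. The members, gene lists and tests were chosen with earlier results of these data known. Named genes were the 6 members, up to 6 called genes per list and comparison with vehicle, erythroid genes with at least 10 counts in every tumor of a group, and those nearest to Hbb-bs. The genes Klri1, B230303A05Rik, Cd209f, Mcpt4 and the untested or uncalled genes of the lists were named after their values were seen. Hbb-bh1, Hbb-bh2, Rhag, Ahsp and Rhex were not analysed here. Some genes of the lists are not reported here. Vehicle replicate 1 has a title of another form than replicates 2 to 5 and was grouped with them. Its table column matches the label by library code. Symbols and positions came from GENCODE and RefSeq annotations of GRCm38. Alternatives were other scalings, DESeq2, no filter, no fold limit, the replicate number as a block, library codes as a term, later codes alone, and each tumor left out.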

Additional observations from a re-analysis of the deposited data

Results flagged for a closer look

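A tumor stood apart from the other 4 of its group (gap to the nearest tumor over the group's range above 0.71) in 13 of 74 groups of values. Chance flags about 1 in 20 groups of continuous, independent values, but several of these groups are counts near 0 and all share the same tumors, so the 13 are not set against that rate. Vehicle replicate 4 was the high tumor for Hbb-bt (766 reads, next 315), Alas2 (326, next 104) and Slc4a1 (10, next 3), and it was also the highest for Hbb-bs. Among cotreated tumors, replicate 2 held 3 reads of Hba-a2 where the others held 0 and 4 of Slc4a1 where the others held 2, and replicate 5 held 2 reads of Alas2 where the others held 0. The log2 ratio of Hbb-bs to Hbb-bt was 2.78 in KW6002 replicate 3, next 2.35.

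Of the lists, the summed level of the other erythroid genes was 20.9 CPM in cotreatment replicate 4 (next 12.7), the tumor with the most Mb reads. That of neutrophil genes was 35.6 CPM in the same tumor (next 22.0). Endothelial genes summed to 466 CPM in vehicle replicate 3 (next 371). B cell genes summed to 130 CPM in KW6002 replicate 1 (next 15.9) and to 18.6 CPM in cisplatin replicate 4 (next 10.4). The leukocyte antigen Ptprc was lowest in vehicle replicate 3, at 67.0 CPM (next 78.8).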

How the results depend on the processing

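The 5 tested members stayed below 0 in KW6002 against vehicle in all 28 fits and none was called in any of them. The log2 fold change of Hbb-bs ran from -0.99 to -0.46 and that of Hba-a2 from -1.02 to -0.0005. Slc4a1, at 1 to 10 reads per tumor, was limited by depth. The alternatives below moved a count by more than 1.5 times, turned a sign or passed a threshold, and except where fewer tumors or no fold limit were used by construction, the cause was not tested.

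Without the fold limit, all genes called were 2752 for cisplatin with vehicle (1762 with the limit), 5906 for cotreatment with vehicle (3914), 5837 for cotreatment with KW6002 (3884) and 1086 for cotreatment with cisplatin (667), and heme synthesis genes called were 3, 7 and 4 in the first 3 of these. With the 12 tumors of later library codes alone, all genes called were 2743, 2209, 1654 and 1 in the same order. Heme synthesis genes called after cisplatin were then 2, breakdown and iron genes 4, and other erythroid genes called after cotreatment 0 against vehicle and 0 against KW6002. In the same tumors the log2 ratio, KW6002 minus vehicle, turned to -0.12 for Hba-a1 to Hba-a2 (exact permutation P = 0.457), -0.0086 for Alas2 to Hbb-bs (exact permutation P = 0.943) and -0.070 for Slc4a1 to Hbb-bs (exact permutation P = 0.914). Correlations with Hbb-bs were 0.79 for Slc4a1 (permutation P = 0.0374), 0.012 for endothelial and 0.20 for neutrophil markers. Centered on group means, the neutrophil value was 0.045.

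Without the filter on low counts, breakdown and iron genes called after cisplatin were 1, and other erythroid genes called after cotreatment were 0 against vehicle and 1 against KW6002. With library codes as a term the last count was 1, breakdown and iron genes called were 5 for cotreatment with KW6002 and 1 for cotreatment with cisplatin, and DESeq2 gave 5 and 1. Among the named globin, erythroid, heme and iron genes, calls were lost with later codes alone for Ermap, Mb, Ank1, Epor, Hpx, Tfrc and Fech. Without the filter they were lost for Ermap, Mb, Ank1, Cd163 and Fth1, and with the block for Mb, Ank1 and Cd163. With library codes as a term they were lost for Ermap and Ank1, and with DESeq2 for Ermap. Neutrophil genes called after cisplatin were 0 with later codes alone and 1 without the filter. After cotreatment with vehicle as the reference, 1 neutrophil gene was called with later codes alone. With later codes alone, platelet genes called after cotreatment with vehicle were 1. With limits of at most 1 and at least 10 reads, 1 gene showed the pattern of the globins.

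The replicate numbers did not pair the tumors, since in none of the 6 pairs of groups were all 5 correlations of same-numbered tumors above 0.1. They ran from -0.39 to 0.39, and 1 to 4 of 5 were above 0.1 (4 between cisplatin and cotreatment, 1 between vehicle and KW6002). At most 2 of 5 tumors correlated best with their own number. With the number as a block, the vehicle comparisons called 0 genes for KW6002, 1610 for cisplatin and 3769 for cotreatment, and other erythroid genes called for cotreatment with KW6002 were 1.

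With each tumor left out in turn, heme synthesis genes called after cisplatin were 0 to 1 and breakdown and iron genes 1 to 4. Other erythroid genes called after cotreatment were 0 to 2 against vehicle and 1 to 2 against KW6002, and breakdown and iron genes against KW6002 were 2 to 5. Between cotreatment and cisplatin, 289 to 1013 genes were called (289 without cotreatment replicate 2, 295 without cotreatment replicate 3, 396 without cisplatin replicate 3 and 1013 without cotreatment replicate 4), and breakdown and iron genes were 0 to 1. The log2 ratio difference ran from -0.0085 to 0.19 for Hbb-bs to Hbb-bt and from -0.13 to 0.26 for Hba-a1 to Hba-a2. Correlations with Hbb-bs ran from -0.13 to 0.46 for Slc4a1, -0.26 to 0.19 for endothelial, 0.40 to 0.77 for platelet and -0.27 to 0.18 for neutrophil markers.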
